A study of Mus musculus with 6 samples.

Results

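The genes of the constitutive proteasome were followed through chemotherapy of mouse colorectal cancer organoids. Members were the protein-coding mouse genes named Psma, Psmb, Psmc, Psmd or Psme plus a number, with the immunoproteasome genes Psmb8, Psmb9 and Psmb10 left out. The rule found 40 members among the 24190 genes counted: 16 of the core particle, 20 named as regulatory particle genes and 4 activators. Of these, 38 were high enough to be tested. The rule itself uses gene names and no measured value.

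The proteasome is the protease that breaks down proteins tagged with ubiquitin. Its core is a barrel of stacked rings: the outer alpha rings gate the entrance, and the inner beta rings carry the cutting sites on Psmb5, Psmb6 and Psmb7. A regulatory particle caps the barrel. Its base holds the ring of Psmc ATPases that unfold and thread the substrate, and its lid carries Psmd14, the enzyme that removes the ubiquitin chain. The Psme activators open the gate in place of that cap and need no ubiquitin. Each ring takes its subunits in equal numbers, and the transcription factor NRF1, encoded by Nfe2l1, is known to raise these genes together when proteasome activity falls short.

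The organoids were MTO54 parental, a mouse tumor organoid (MTO) line labelled as AKP colorectal cancer. Both groups were of this genotype and grew in complete stem cell medium. Starting 2 days after seeding, 3 samples received Folfiri for 2 days, given as 5FU at 50 μg/μl (as the labels have it) with SN38, the active form of irinotecan, at 100 nM. The time is that of the labels and the methods, and a legend of the study gives a longer one. The 3 Control samples received fresh medium. RNA was poly(A)-selected and sequenced, and all samples came from the same organoid line. The study calls its replicates biological but does not say how they were set apart, so the p-values measure the spread between these samples of 1 line.

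The libraries held 22103591 to 30098210 counts over genes. Control replicate 1 and Folfiri replicate 3 stood apart from the others of their groups, with 22.4 to 23.7 and 11.9 to 12.3 in chi-square per degree of freedom against 3.84 and 3.55 for the remaining pairs, and member results that changed a call or moved by over 1.5 times without both are given where the members are described or at the end. Of 10 colon epithelium markers, 9 reached 1 CPM (counts scaled to the same library total, with TMM factors) in both groups. Their summed level was 5978 to 6947 CPM in Control and 4818 to 4992 CPM in Folfiri, and the transcription factor Cdx1 was near 0. Markers of fibroblasts summed to 1.08 to 1.44 CPM in Control and 2.06 to 2.45 CPM in Folfiri. Immune markers summed to 21.4 to 26.2 and 22.3 to 23.1 CPM, nearly all from Cd68, with 1 and 2 of 9 measured genes at 1 CPM or more. Endothelial markers summed to 72.2 to 125 and 65.7 to 76.4 CPM, nearly all from Cdh5, while Pecam1, Kdr and Tek stayed below 1 CPM. The part of these shifts in the results was not tested. In bulk RNA, a change in the kind or number of cells cannot be told apart from a change in RNA per cell.

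The first question was how the proteasome genes as a group differed between Folfiri and Control. Of the 38 tested members, 24 rose and 6 fell (edgeR's quasi-likelihood test, adjusted p under 0.05 over all 14692 tested genes), and 8 were not called. That is 78.9% called, beside 79.1% of all tested genes, so the share called was near the background. The direction was less even: 63.2% of members rose against 40.3% of all tested genes, and 15.8% fell against 38.8%. The groups did not overlap for 31 members (81.6%), and this held for 81.4% of all tested genes. The shifts were small. The median log2 fold change of members was 0.26, with values from -0.75 to 1.35, beside a median of 0.02 and quartiles of -0.70 and 0.76 over all tested genes. A log2 change of at least 1 in either direction was seen for 2 members, Psme2 and Psme3, which is 5.26% of those tested, against 36.4% of all tested genes. At 0.5 or more the shares were 31.6% and 64.5%. Scaling by total counts in place of TMM moved the median of all tested genes from 0.02 to 0.30, and then 31 members rose and 3 fell, 7 of the 8 members not called being called higher. In that fit 49.8% of all tested genes rose and 28.9% fell. In the plot of fold changes by particle, the 6 members called lower sit in the beta ring, the base, the lid and the activators, and no alpha ring, ATPase or chaperone gene is called lower.

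**Figure D1:**
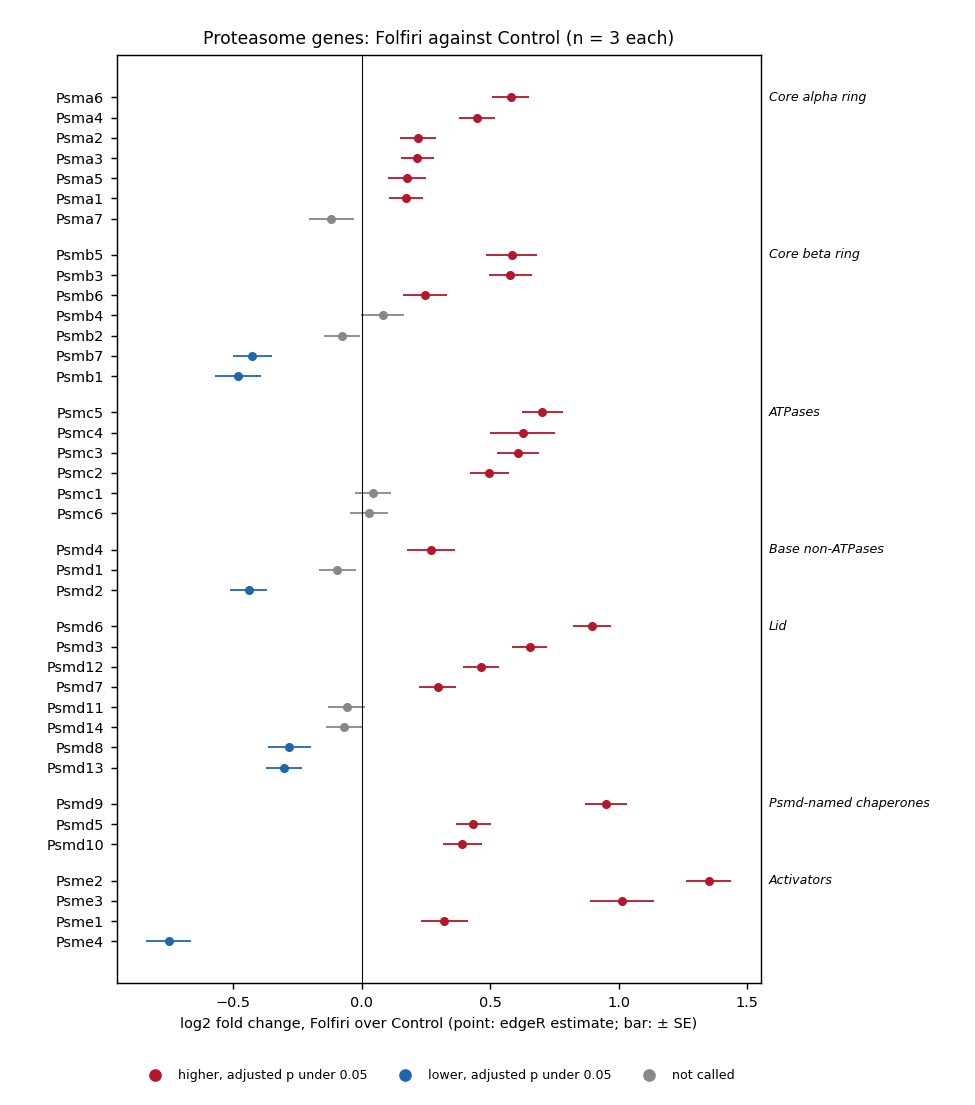
Log2 fold change of the 38 tested proteasome genes, Folfiri over Control (x axis, edgeR estimate ± SE), grouped by particle and ordered within each group. Red and blue points are genes called higher (24) and lower (6), and grey points the 8 not called; Psme2 lies farthest to the right and Psme4 farthest to the left.

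Together the members made up 0.412% ± 0.0154 (SD, n = 3) of all counts in Control and 0.555% ± 0.0198 (SD, n = 3) in Folfiri. After TMM scaling their summed level went from 4539 ± 93.7 to 5049 ± 202 CPM (SD, n = 3). Neither pair of groups overlapped. The scaling matters for this sum, because the TMM factors were 0.880 to 0.966 in Control and 1.10 to 1.11 in Folfiri. The members were tightly measured, with a median coefficient of variation of 5.29% in Control and 5.47% in Folfiri, and SEs of the log2 fold changes from 0.0658 to 0.126. The highest coefficient of variation in Control was that of Psme3, at 21.3%.

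A sample-by-sample view showed 1 library at the top. In all 24 members whose Folfiri values lay above the Control values, the highest value was that of Folfiri replicate 3. Over all tested genes separated in the same way, 42.2% of 6105 had their highest value there. Without Folfiri replicate 3, 20 members were called higher and 6 lower, beside 38.6% and 37.2% of all genes tested in that fit. Leaving out Control replicate 1 as well gave 23 higher and 8 lower, beside 43.3% and 41.5%.

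**Figure D2:**
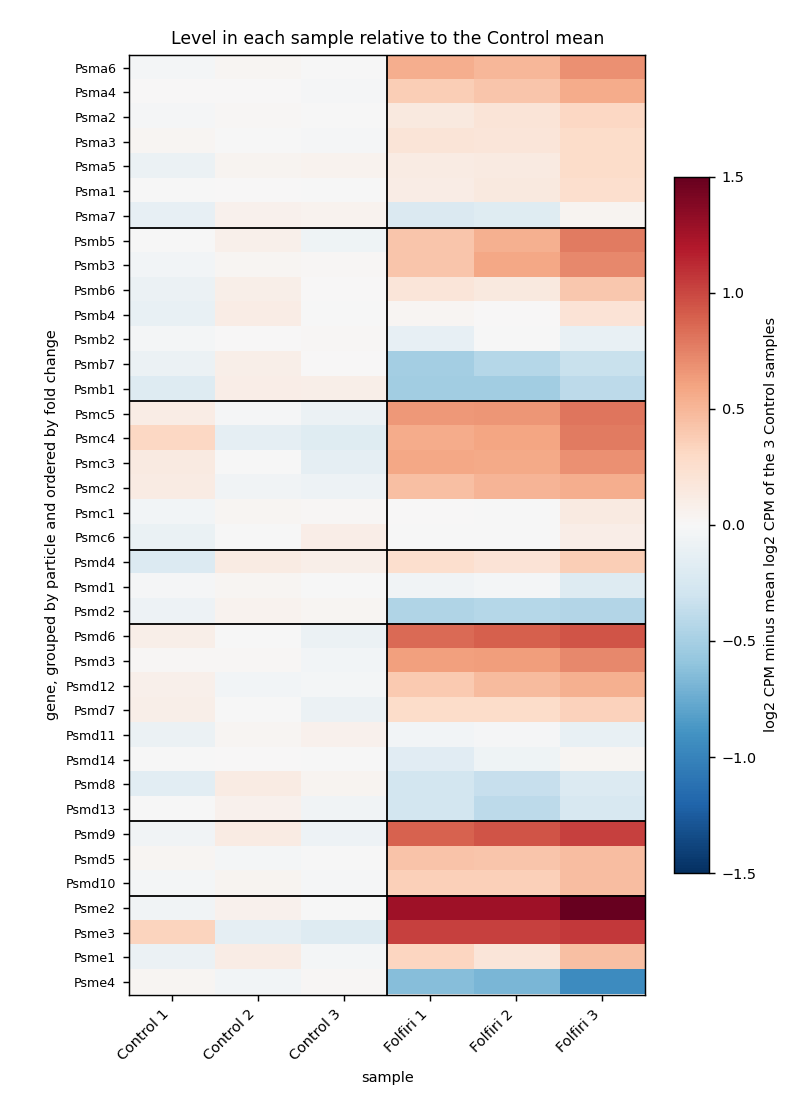
Log2 CPM of each tested proteasome gene in each of the 6 samples, minus its mean over the 3 Control samples (color scale from -1.5 to 1.5). Rows are genes grouped by particle and columns are samples; the red rows are deepest in the Folfiri replicate 3 column, where Psme2 reaches 1.49 and Psme4 -0.95.

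In the alpha ring, 6 of 7 tested genes rose, none fell, and the median log2 fold change was 0.22. The largest rise was that of Psma6. It was measured at 123, 127 and 125 CPM in Control replicates 1 to 3 and at 182, 177 and 201 CPM in Folfiri replicates 1 to 3. All Folfiri values were above all Control values, with a 1.49-fold difference (log2 0.58 ± 0.0726 SE, edgeR adjusted p = 2.72e-05). Psma4 followed with a log2 change of 0.45, while Psma1, Psma2, Psma3 and Psma5 rose by only 0.17 to 0.22.

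These 4 small rises depended on single libraries and on the processing. The call of Psma5 (edgeR adjusted p = 0.0489) was lost without any 1 of the 6 samples, where its log2 change was 0.13 to 0.21, and without both libraries that stand apart the change was 0.08. Psma1 was no longer called without Control replicate 2, Control replicate 3, Folfiri replicate 2 or Folfiri replicate 3, Psma3 without Control replicate 2 or 3, and Psma2 without Control replicate 3. Their log2 changes over the 6 omissions were 0.13 to 0.21 for Psma1, 0.19 to 0.24 for Psma3 and 0.17 to 0.26 for Psma2. Correction for gene span took Psma1 to -0.02, Psma3 to 0.09 and Psma5 to 0.07, all without a call. Correction for GC content took Psma2 to 0.08, Psma3 to 0.10, Psma1 to 0.12 and Psma5 to 0.16, so that none of the 4 was called. Psma1, Psma2, Psma3 and Psma5 were not called either when no genes were filtered, nor Psma1 and Psma5 with a replicate block, and Psma5 kept its call in 3 of 16 alternatives. Psma6 and Psma4 were called under every alternative run.

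The lowest member of the ring was Psma7. Its values were 112, 128 and 127 CPM in Control and 105, 107 and 125 CPM in Folfiri. The groups overlapped, and the log2 change of -0.12 ± 0.0872 SE was not called (edgeR adjusted p = 0.237). Without Control replicate 1, the lowest Control sample, the log2 change was -0.18 and was called (edgeR adjusted p = 0.0437). Without Folfiri replicate 3 it was -0.20 (edgeR adjusted p = 0.051), and without both libraries -0.26 (edgeR adjusted p = 5.59e-06). With total counts as the scale its sign turned, to 0.16 without a call.

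The beta ring was split. Of 7 tested genes, 3 rose, 2 fell and 2 were not called, with a median log2 fold change of 0.08. The split ran through the cutting subunits themselves. Psmb5, which carries the chymotrypsin-like site and is the main target of proteasome inhibitors, was measured at 47.9, 50.9 and 46.0 CPM in Control and 64.4, 70.0 and 82.7 CPM in Folfiri. The groups were separate and the difference was 1.499-fold (log2 0.58 ± 0.098 SE, edgeR adjusted p = 0.000243).

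Psmb6, the subunit with the caspase-like site, stood at 101, 114 and 107 CPM in Control and 122, 119 and 142 CPM in Folfiri. Its rise was small, 1.19-fold (log2 0.25 ± 0.0851 SE, edgeR adjusted p = 0.020). The call was lost without Folfiri replicate 3 (log2 0.17, edgeR adjusted p = 0.069) and without Control replicate 3 (log2 0.24, edgeR adjusted p = 0.0565). Without both libraries that stand apart the log2 change was 0.12 and was called (edgeR adjusted p = 0.0215).

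Psmb7, the subunit with the trypsin-like site, went the other way. It was at 92.2, 104 and 98.2 CPM in Control and 68.6, 72.9 and 77.7 CPM in Folfiri. Every Folfiri value lay below every Control value, at 0.745 of the Control level (log2 -0.42 ± 0.0769 SE, edgeR adjusted p = 0.00042). With total counts as the scale it fell by 0.15 on the log2 scale and was not called. The exons of Psmb7 share 405 bases with Nek6 on the opposite strand, and the strand setting of the counts is not given in the sources used here.

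Psmb1, a ring subunit without a cutting site, fell most in the core. Its values were 222, 272 and 269 CPM in Control and 176, 177 and 193 CPM in Folfiri. The groups did not overlap, although Control replicate 1 was well below the other Control samples (log2 -0.48 ± 0.0906 SE, edgeR adjusted p = 0.000549). Psmb3, another subunit without a site, rose by 0.58 on the log2 scale. Psmb2 and Psmb4 were not called, with log2 changes of -0.08 and 0.08 and overlapping groups. Psmb4 was at -0.04 without both libraries that stand apart, not called, and was called higher at 0.27 with correction for gene span.

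The tissue-restricted core genes were near 0. Psma8, the alpha subunit of germ cells, had 0, 0 and 1 counts in Control and 0, 0 and 2 in Folfiri. Psmb11, the beta subunit of the thymus, had 0, 0 and 0 counts in Control and 1, 5 and 2 in Folfiri. Neither was tested, and a count of 0 in a library allows a level of up to 0.091 to 0.154 CPM, counting error only.

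The ATPases of the base had the highest median change of the subunit groups. Of the 6, Psmc2, Psmc3, Psmc4 and Psmc5 rose by 0.50 to 0.70 on the log2 scale, and Psmc1 and Psmc6 were not called, with log2 changes of 0.04 and 0.03. Their median was 0.55. Psmc5 was at 62.4, 57.2 and 54.4 CPM in Control and 90.9, 91.5 and 101 CPM in Folfiri. The lowest Folfiri value exceeded the highest Control value by a wide margin (1.63-fold, log2 0.70 ± 0.080 SE, edgeR adjusted p = 1.3e-05). Psmc6 was at 155, 165 and 177 CPM in Control and 165, 165 and 177 CPM in Folfiri. Here the groups overlapped nearly completely (log2 0.03 ± 0.074 SE, edgeR adjusted p = 0.715). With total counts as the scale Psmc6 was called higher, at log2 0.31, and without both libraries that stand apart it was at -0.05, not called.

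The remaining base subunits form the scaffold and bind ubiquitin. Psmd2, the scaffold subunit, was the most counted member, at 430.2, 472 and 465 CPM in Control and 333, 339 and 336 CPM in Folfiri. It fell to 0.738 of the Control level with separate groups (log2 -0.44 ± 0.0724 SE, edgeR adjusted p = 0.000213). A near-identical pseudogene, Gm5422, was counted apart and fell by 0.44 on the log2 scale too, and the reads of the pair cannot be told apart with certainty. Psmd4, a ubiquitin receptor, was at 97.3, 122 and 119 CPM in Control and 134, 129 and 144 CPM in Folfiri. The values were separate by a narrow gap (log2 0.27 ± 0.0927 SE, edgeR adjusted p = 0.0199), and without Folfiri replicate 3 the log2 change of 0.23 was not called (edgeR adjusted p = 0.0715). For Psmd4 the change was 0.18 without Control replicate 1, 0.12 without both libraries that stand apart, both called, and 0.11 with correction for gene span, not called (edgeR adjusted p = 0.302). Psmd1, the other scaffold subunit, was at 143, 148 and 144 CPM in Control and 139, 142 and 126 CPM in Folfiri, a separation too small to be called (log2 -0.09 ± 0.0703 SE, edgeR adjusted p = 0.24), nor was it without both libraries that stand apart (log2 -0.06).

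In the lid, 4 of 8 genes rose, 2 fell and 2 were not called, with a median log2 fold change of 0.12. Psmd6 had the largest rise of any 26S subunit among the members. It was at 48.2, 45.5 and 42.9 CPM in Control and 82.1, 84.8 and 87.4 CPM in Folfiri. The groups were far apart relative to their spread (1.86-fold, log2 0.90 ± 0.0742 SE, edgeR adjusted p = 1.2e-06). Psmd3, Psmd12 and Psmd7 rose by 0.65, 0.47 and 0.30. Psmd13 was at 97.1, 102 and 94.6 CPM in Control and 81.2, 74.5 and 82.5 CPM in Folfiri, below Control in every sample (log2 -0.30 ± 0.0714 SE, edgeR adjusted p = 0.00253). Psmd13 shares 342 exonic bases with Sirt3 on the opposite strand. Psmd8 fell by 0.28 on the log2 scale, a call lost without Folfiri replicate 2, and its change over the omission of single samples was -0.36 to -0.23. Psmd11 and the deubiquitinase Psmd14 were not called, with log2 changes of -0.06 and -0.07. Without Control replicate 1 and Folfiri replicate 3, Psmd14 was called lower at -0.12 (edgeR adjusted p = 0.0165), and Psmd11 was called lower at -0.19 with correction for GC content. The sign of Psmd14 turned with correction for gene span, to 0.15 without a call. Psmd14 and Psmd11 were called higher with total counts as the scale, at 0.21 and 0.22. With total counts as the scale neither Psmd8 nor Psmd13 was called, the latter with a log2 change of -0.03.

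Psmd5, Psmd9 and Psmd10 carry Psmd names but are chaperones that help assemble the base and leave before the particle is finished. All 3 rose under every alternative run. Psmd9 was at 36.8, 41.6 and 36.0 CPM in Control and 70.2, 73.4 and 77.5 CPM in Folfiri. The Folfiri values were close to 2-fold the Control values, with no overlap (1.93-fold, log2 0.95 ± 0.0827 SE, edgeR adjusted p = 1.72e-06). Of the annotated exons of Psmd9, 25.5% overlap Gm26745 on the opposite strand. Psmd10, also known as gankyrin, was at 33.1, 34.6 and 33.4 CPM in Control and 43.1, 43.3 and 46.3 CPM in Folfiri. The step was smaller but clear of the spread (1.31-fold, log2 0.39 ± 0.0742 SE, edgeR adjusted p = 0.000569). Psmd5 rose by 0.44.

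The activators held the largest changes in both directions, with a median log2 fold change of 0.67 over 4 genes. Psme1 (chr14:55578123-55581529, GRCm38, plus strand) and Psme2 (chr14:55587441-55591113, minus strand) are neighbours and encode PA28 alpha and beta, which form 1 mixed ring and are known as interferon-induced partners of the immunoproteasome. Psme2 was at 26.1, 28.4 and 27.1 CPM in Control and 65.8, 65.7 and 76.5 CPM in Folfiri. It rose in every sample, and more than any other member (2.55-fold, log2 1.35 ± 0.0871 SE, edgeR adjusted p = 2.09e-07). Psme1 was at 51.5, 59.4 and 53.9 CPM in Control and 68.5, 62.3 and 75.2 CPM in Folfiri. Its Folfiri values were only just above those of Control (1.25-fold, log2 0.32 ± 0.0906 SE, edgeR adjusted p = 0.00711).

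The proportion between the pair thus changed. The ratio of Psme1 to Psme2 in CPM was 1.97, 2.09 and 1.99 in Control and 1.04, 0.948 and 0.983 in Folfiri, so Psme1 took more reads than Psme2 in every Control sample and about as many in the Folfiri samples. This ratio does not depend on the scaling between samples. Psme2b, a copy 99.4% identical to Psme2 over 794 aligned bases, was counted at 2.38 to 2.96 CPM in Control and 6.10 to 8.10 CPM in Folfiri, a log2 change of 1.39. With the counts of the copy added to Psme2, the mean ratio was 1.84 in Control and 0.899 in Folfiri.

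Psme3 encodes PA28 gamma, an activator of the nucleus. It was at 98.9, 71.0 and 68.2 CPM in Control and 159, 159 and 163 CPM in Folfiri. Control replicate 1 lay far above the other Control samples but still below all Folfiri samples (2.02-fold, log2 1.01 ± 0.124 SE, edgeR adjusted p = 2.22e-05). Over the omission of single samples its log2 change was 0.91 to 1.20. Psme4 encodes PA200, a nuclear activator linked to the turnover of acetylated histones and to DNA repair. It was at 205, 196 and 204 CPM in Control and 129.6, 126 and 105 CPM in Folfiri. Psme4 fell to 0.594 of the Control level (log2 -0.75 ± 0.0866 SE, edgeR adjusted p = 1.45e-05), the only activator to fall, and it stayed lower with total counts as the scale (log2 -0.48).

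The next comparison set the core against the regulatory particle and the activators. The core had 9 of 14 tested genes called higher and 2 lower, with a median log2 fold change of 0.20 and values from -0.48 to 0.58. The regulatory particle had 12 of 20 called higher and 3 lower, with a median of 0.34 and values from -0.44 to 0.95. Without the 3 chaperones it had 9 of 17 higher and 3 lower, with a median of 0.27 and values up to 0.90. Of the activators, 3 rose and 1 fell. Not called were 3 core and 5 regulatory genes. Over all tested genes, 40.3% were called higher and 38.8% lower, 79.1% in all. These shares stand beside the counts of each particle here and of its parts above. The count for the core was less stable, since without Control replicate 3 only 4 core genes were called higher, while the regulatory particle kept 11 or 12 over the omissions of single samples. A correction for gene GC content left 5 core genes called higher. Of all genes tested, 38.1% were called higher without Control replicate 3 and 39.8% with the GC correction.

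Within each sample, the mean log2 CPM over the core minus that over the regulatory particle was 0.0827, 0.179 and 0.185 in Control and -0.0192, 0.00987 and 0.0749 in Folfiri. The difference between group means was -0.127, toward the regulatory particle, and the groups were separate by a gap from 0.0749 to 0.0827. It was -0.072 when the 3 chaperones were left out, and the groups then overlapped. On the scale of summed CPM per kb of principal transcript, with the same 20 regulatory genes, the core to regulatory ratio was 1.10 ± 0.0372 in Control and 1.07 ± 0.0374 in Folfiri (SD, n = 3), again with overlap, a difference of -0.042 on the log2 scale. With lengths taken as the union of exons the ratio was 0.984 ± 0.0296 and 1.002 ± 0.0315, and the difference reversed, to 0.026. Without the chaperones these differences were -0.024 and 0.043. The separation of this difference thus changed with the chaperone genes and with how levels were combined. Its sign turned with the exon union as length, and not with the chaperones.

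The parts of each particle were also compared within samples. Alpha minus beta ring, as mean log2 CPM, was 0.245 to 0.339 in Control and 0.445 to 0.489 in Folfiri, without overlap. ATPases minus lid was -0.304 to -0.161 in Control and -0.0498 to 0.00684 in Folfiri, also without overlap. As differences of mean log2 fold changes these were 0.17 and 0.22. Correction for gene span lowered them to 0.061 and 0.14, and correction for GC content lowered the former to 0.11, so alpha minus beta moved with these corrections by as large a factor as core minus regulatory did. These summaries over chosen genes are given without a test.

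**Figure D3:**
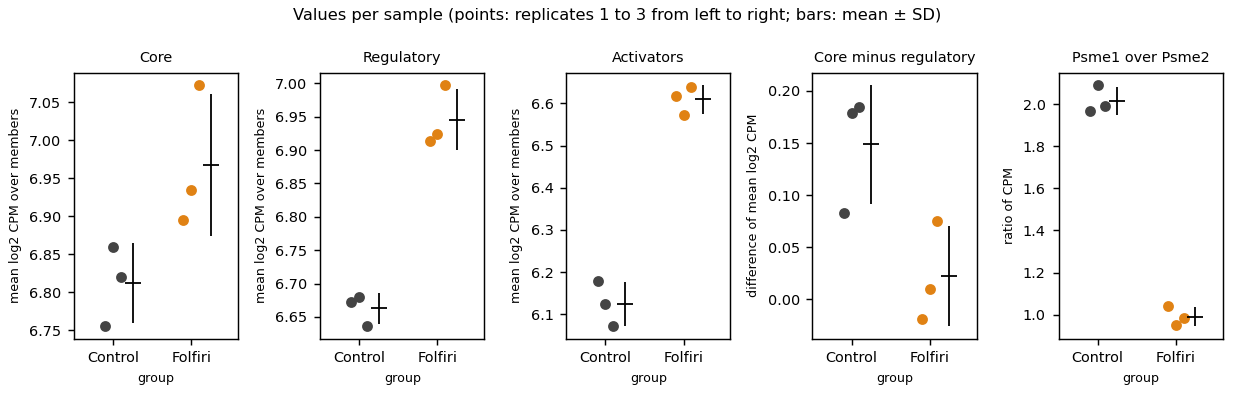
Per-sample values in 5 panels, with Control in dark grey and Folfiri in orange (points are replicates 1 to 3, bars mean ± SD): mean log2 CPM of core, regulatory particle and activator genes, core minus regulatory, and the CPM ratio of Psme1 to Psme2. The 3 means are higher in all Folfiri samples, core minus regulatory is separated only by a narrow gap (0.0749 against 0.0827), and the ratio drops from about 2.02 to 0.99.

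Levels can be compared between genes only per length, here as CPM per kb of the principal transcript. Although the core is built from equal numbers of each subunit, its 14 tested genes spanned 3.16-fold in Control, from 45.8 for Psma2 to 145 for Psmb1. In Folfiri they spanned 3.36-fold, from 53.3 for Psma2 to 179 for Psma6. The 17 regulatory subunits spanned 5.13-fold in Control, from 29.97 for Psmc4 to 154 for Psmd2, and 3.34-fold in Folfiri, from 39.9 for Psmd13 to 133 for Psmd3. Their coefficient of variation was 43.4% in Control and 33.7% in Folfiri. That of the core went the other way, from 34.6% to 37.5%. So did that of the lid, from 30.1% to 38.1%, with a span of 2.73-fold in Control and 3.34-fold in Folfiri. Among the ATPases, which form 1 ring, the span was 3.74-fold in Control and 2.49-fold in Folfiri, since Psmc1 and Psmc6 hardly moved while the lower Psmc2 to Psmc5 rose. In the beta ring the top gene changed from Psmb1 at 145 to Psmb6 at 160, and the lowest from Psmb5 at 53.7 to Psmb7 at 63.0. With the counts of Gm3375, a near copy of Psmb5 (98.9% identical) counted apart, added to it, Psmb5 was at 81.7 in Control and 123 in Folfiri, and the lowest gene in Control was Psmb2 at 73.9. With their copies added in the same way, Psmd2 was at 174 in Control and 128 in Folfiri, and Psmc1 at 125 and 129. This widened the span of the regulatory subunits in Control and that of the ATPases in both groups. On the principal transcript the chaperones lay below the subunits, at 13.1 to 23.6 per kb in Control and 17.7 to 31.0 per kb in Folfiri. The order of levels depended on the length used. Per kb of the union of exons, Psmd10 was at 22.96 in Control, above Psmd6 at 16.3, Psmd1 at 19.9 and Psmc2 at 21.6, and the core then ran from Psmb7 at 28.7 to Psma6 at 101.

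**Figure D4:**
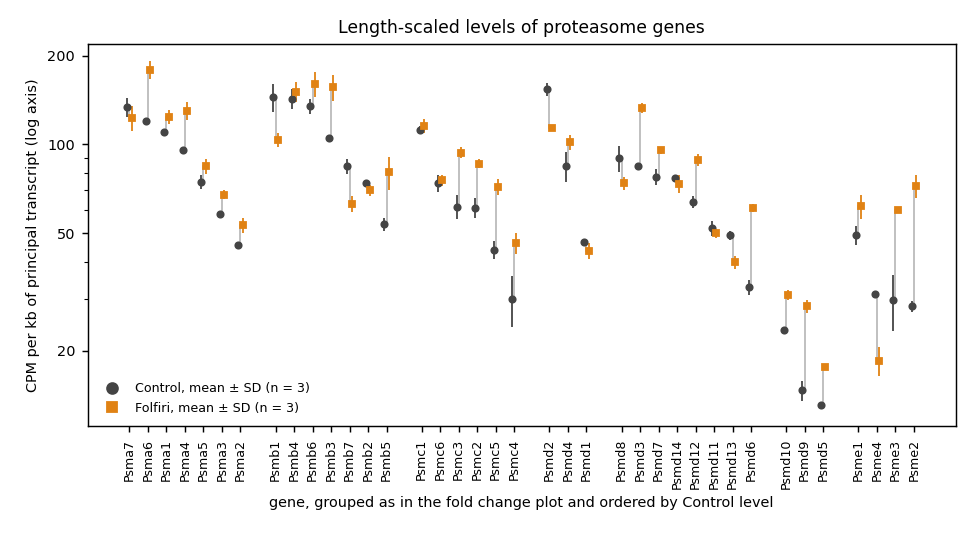
Level of each tested proteasome gene in CPM per kb of the principal transcript (log axis) in Control (grey circles) and Folfiri (orange squares), mean ± SD over 3 samples. Grey lines join the groups of 1 gene; the ATPases draw together in Folfiri, the 3 chaperones lie lowest in Control, and Psme4 is the lowest activator in Folfiri.

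Promoters were searched for the antioxidant response element, the sequence bound by NRF1, and for the CCAAT box. RefSeq windows on GRCm38.p6, from 250 bases before to 50 after the start site, were given for 33 of the 40 members. A gene with several windows was counted if any of them held a match. TGACNNNGC or TGAGNNNGC, on either strand, occurred in 15 of the 33 (45.5%), beside 30.8% of all 27025 genes with windows. The TGACNNNGC form alone was found in 6 members (18.2%, beside 13.99% of all genes), the TGAGNNNGC form in 11 (33.3%, beside 19.9%), and CCAAT in 13 (39.4%, beside 41.1%). Of all 32851 windows taken singly, 27.8% held either form of the element. Either form lay in 10 of the 21 members that rose, 2 of the 4 that fell and 3 of the 7 not called. The 6 members with TGACNNNGC are shown because they include genes that rose, a gene that fell and a gene that was not called. The match is in capitals with up to 10 bases on each side, read 5′ to 3′ along the gene.
Psmb5: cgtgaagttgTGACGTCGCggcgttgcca
Psmb6: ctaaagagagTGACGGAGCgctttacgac
Psmd9: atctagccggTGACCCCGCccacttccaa
Psmd12: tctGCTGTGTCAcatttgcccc
Psmc6: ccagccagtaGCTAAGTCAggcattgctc
Psme4: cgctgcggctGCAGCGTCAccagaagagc
Psmb5 (chr14:54618024-54618052, minus strand), Psmb6 (chr11:70525338-70525366, plus strand) and Psmd9 (chr5:123228149-123228177, plus strand) have the match as read along the gene, at positions -47, -9 and -31, with position 0 the first base of the transcript. Psmd12 (chr11:107479278-107479299, plus strand), Psmc6 (chr14:45329587-45329615, plus strand) and Psme4 (chr11:30771758-30771786, plus strand) have it as the reverse complement, at -247, -227 and -7. Psmb5, Psmb6, Psmd9 and Psmd12 rose, Psmc6 was not called and Psme4 fell. A match of letters is a description of the window and not a binding site.

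Genes that act with the proteasome were read from the same fit. Of 27 tested partner genes, leaving out Psmb8, which was nearly at 0 in Control, 12 rose, 8 fell and 7 were not called, with a median log2 fold change of 0.20. That is 74.1% called, with 44.4% higher and 29.6% lower, beside 79.1%, 40.3% and 38.8% of all tested genes, so the share called was near the background. Nfe2l1, encoding NRF1, was at 219, 219 and 213 CPM in Control and 186, 196 and 184 CPM in Folfiri. All Folfiri values were below Control (log2 -0.20 ± 0.0659 SE, edgeR adjusted p = 0.0158), but the direction turned with total counts as the scale (log2 0.074, not called), and the call was lost without Control replicate 2 (log2 -0.20, edgeR adjusted p = 0.0522) or Folfiri replicate 1 (log2 -0.19, edgeR adjusted p = 0.0688). The Nfe2l1 call was also lost with upper quartile scaling (log2 -0.15, edgeR adjusted p = 0.0539) and with correction for GC content (log2 -0.13, edgeR adjusted p = 0.0999), and with correction for gene span the change was -0.40. Of the genes whose products process NRF1, Ddi2, its protease, rose by 0.69, and Ngly1, which strips its sugars, was at 39.0, 35.5 and 38.4 CPM in Control and 22.6, 21.6 and 21.9 CPM in Folfiri. Ngly1 fell by 0.77 with tight, separate groups (edgeR adjusted p = 5.53e-06), or by 0.50 with total counts as the scale. The segregase Vcp and the ubiquitin ligase adaptor Sel1l fell by 0.22 and 0.60, and the ligase Syvn1 rose by 0.21.

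The core assembly chaperones Psmg1 and Psmg2, which pair to build the alpha ring, rose together. Psmg2 was at 13.7, 11.8 and 12.03 CPM in Control and 26.5, 27.5 and 31.6 CPM in Folfiri. All Folfiri values lay well above those of Control (2.28-fold, log2 1.19 ± 0.105 SE, edgeR adjusted p = 1.92e-06), and Psmg1 had a log2 change of 1.02. Psmg4 rose by 0.39 and Psmg3 was not called at 0.20. Pomp, which matures the beta ring, was at 168, 198 and 194 CPM in Control and 161, 162 and 184 CPM in Folfiri. These overlapped and were not called (log2 -0.14 ± 0.0862 SE, edgeR adjusted p = 0.153), but without Control replicate 1 the change of -0.21 was called (edgeR adjusted p = 0.0116). Pomp was also called without both libraries that stand apart (log2 -0.28, edgeR adjusted p = 1.27e-06) and with correction for gene span (log2 -0.33, edgeR adjusted p = 0.00447), while with total counts as the scale its sign turned, to 0.14 without a call. Ecpas, a scaffold bound to the 26S proteasome, fell by 0.96. Psmf1, which encodes the inhibitor PI31, was at 23.8, 24.3 and 22.4 CPM in Control and 25.6, 26.3 and 27.3 CPM in Folfiri, separate but not called (log2 0.17 ± 0.0805 SE, edgeR adjusted p = 0.0762). The change of Psmf1 was called without Control replicate 1 (log2 0.18, edgeR adjusted p = 0.0452), with upper quartile scaling (log2 0.22, edgeR adjusted p = 0.0274) and with total counts as the scale (log2 0.44, edgeR adjusted p = 0.00146). Paaf1 was not analysed here.

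Subunits and receptors outside the naming rule were also uneven. Adrm1, a ubiquitin receptor of the base, was at 72.2, 80.0 and 72.2 CPM in Control and 141, 144 and 163 CPM in Folfiri. All Folfiri values lay far above those of Control (1.99-fold, log2 0.996 ± 0.0811 SE, edgeR adjusted p = 1.04e-06). Sem1, a small lid subunit, was not called (log2 0.00 ± 0.110 SE). Among the shuttles that carry ubiquitinated proteins, Ubqln4 was at 71.3, 69.7 and 66.6 CPM in Control and 141, 146 and 144 CPM in Folfiri (log2 1.05 ± 0.0657 SE, edgeR adjusted p = 1.64e-07). Its groups were far apart. Rad23b rose by 0.38, and Ubqln1 and Ubqln2 were not called. Of the proteins bound to the particle, the deubiquitinase Usp14 and the ligase Ube3c rose by 0.39 and 0.73, and the deubiquitinase Uchl5 fell by 0.29.

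The immunoproteasome genes, which replace the cutting subunits in immune and interferon-treated cells, were low. Psmb10 was at 9.29, 9.44 and 8.90 CPM in Control and 21.3, 22.4 and 28.4 CPM in Folfiri. It rose 2.61-fold with no overlap (log2 1.38 ± 0.124 SE, edgeR adjusted p = 2.21e-06), close in size to the rise of Psme2. Psmb8 had 1, 0 and 1 counts in Control and 10, 19 and 23 in Folfiri, a ratio of 20.03 per scaled library with an exact 95% interval of 5.27 to 169.7 that covers counting error only. It passed the filter on low values only through its Folfiri samples, so no p is given for it. Psmb9 had 0, 2 and 0 counts in Control and 5, 4 and 5 in Folfiri (ratio 5.39, 1.24 to 48.9) and was not tested.

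Upstream of the particle, the ubiquitin genes divided. Rps27a, which encodes ubiquitin fused to a ribosomal protein, was at 633, 787 and 798 CPM in Control and 348, 342 and 416 CPM in Folfiri. It fell to 0.499 of the Control level (log2 -1.004 ± 0.113 SE, edgeR adjusted p = 1.2e-05). Ubb, a polyubiquitin gene, rose by 0.50. Uba1, the main enzyme that activates ubiquitin, was at 565, 617 and 600.5 CPM in Control and 440.0, 435 and 405 CPM in Folfiri. It fell by 0.48 with separate groups (edgeR adjusted p = 0.000183), or by 0.20 with total counts as the scale (edgeR adjusted p = 0.0131), and Uba6 was not called, with a log2 change of 0.02.

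**Figure D5:**
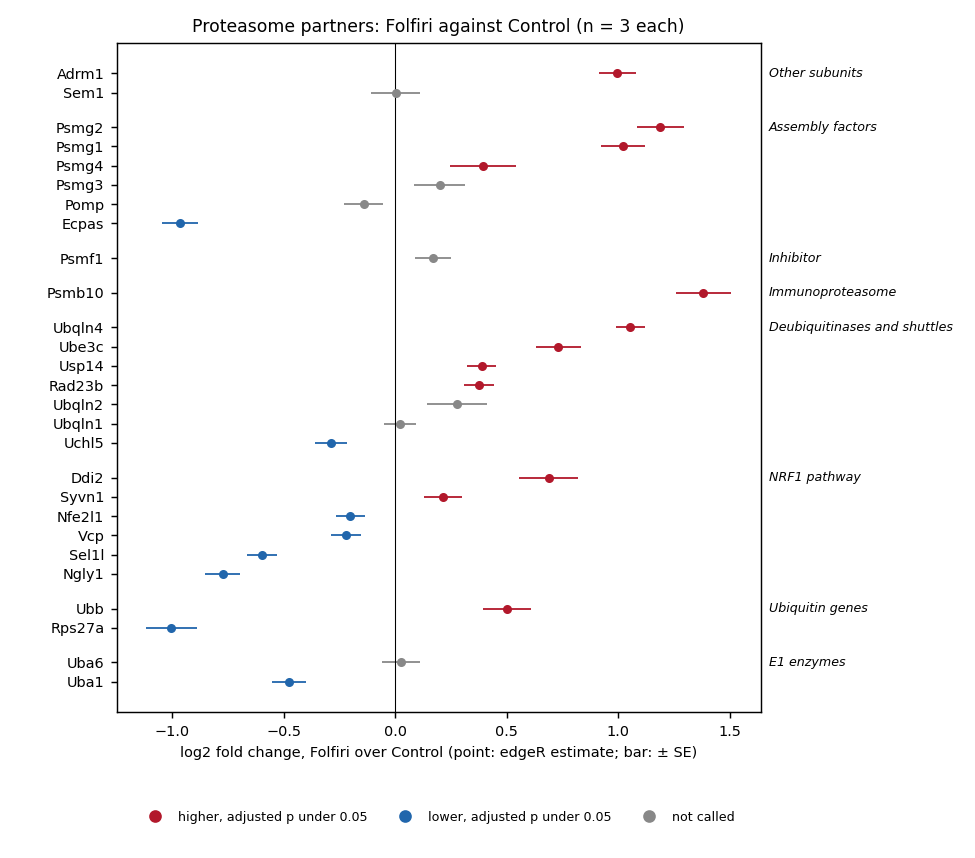
Log2 fold change, Folfiri over Control (x axis, edgeR estimate ± SE), of 27 tested partner genes grouped by role; Psmb8, near 0 in Control, is not drawn. Red, blue and grey mark genes called higher, called lower and not called; assembly factors, deubiquitinases and shuttles, NRF1 pathway genes and ubiquitin genes each hold points on both sides of 0.

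Of the 38 tested members, 18 of the 24 called higher and 3 of the 6 called lower had the same call under all 16 alternatives applied to single genes. The 18 were Psma4, Psma6, Psmb3, Psmb5, Psmc2 to Psmc5, Psmd3, Psmd5, Psmd6, Psmd7, Psmd9, Psmd10, Psmd12 and Psme1 to Psme3, and the 3 were Psmb1, Psmd2 and Psme4. Their size could still move. With total counts as the scale the log2 change was -0.20 for Psmb1 and -0.16 for Psmd2. In that fit all 18 rose more, such as Psmd7 by 0.57 and Psme1 by 0.60. With correction for gene span the log2 change was -0.45 for Psme4 and 0.19 for Psmd7, and without both libraries that stand apart it was 0.20 for Psme1. Psmb6 and Psmd13, called in most alternatives, had 0.49 and -0.49 with the span correction. The exons of 10 members overlap those of other genes and 6 members have a near copy in the genome. Counts of these members are less certain, and the 6 copies that were counted apart (1 each of Psma5, Psmb5, Psmd2 and Psme2, and 2 of Psmc1) had log2 changes within 0.04 of those of their parent genes.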

How the data were processed

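RNA sequencing reads of 6 samples, 3 Control and 3 Folfiri, were aligned by the authors to the mouse genome (GRCm38) with STAR 2.5.2, sorted with Sambamba and counted per gene with Rsubread on GENCODE vM25. The deposited values are raw counts. Strand setting and treatment of reads with several positions are not given in the sources used here.

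Genes passing edgeR's expression filter were TMM-scaled and tested with edgeR 4.0.16 (quasi-likelihood, R 4.3.3) with Benjamini-Hochberg adjustment at 0.05. The scripts were tested on simulated data. SE is the absolute log2 fold change over the root of F. Means over gene groups used log2 CPM with a prior count of 2. Names, positions, overlaps and principal transcripts came from GENCODE vM21, on the same build. Near copies (95% identity or more) were found with blastn 2.17.0.

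Members and gene lists were chosen with earlier results of these data known. Values per sample are given for the cutting subunits, activators, tissue-restricted genes, the highest and lowest member of each group, and set partner genes (some partner genes are not reported here); the values of Psmd1 were added after they were seen. Alternatives covered scaling, filter, DESeq2 1.42.0, the replicate block, corrections for gene span and GC content, omitted samples and members with shared exons. Alternatives for ring, ATPase and lid differences and for levels with copies added were chosen after seeing the data.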

Additional observations from a re-analysis of the deposited data

How the results depend on the processing

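Under DESeq2 size factors, DESeq2's Wald test and a filter at a mean of 1 CPM, no count or median over the core, the regulatory particle or the activators moved past its limit. Total counts as the scale gave 3 members lower (1 of the core, 1 regulatory), with medians of 0.47 (core), 0.62 (regulatory) and 0.94 (activators), and 63.3% of all calls higher against 51.0%. It also turned Nfe2l1 to 0.074. Upper quartile scaling gave a regulatory median of 0.40. Correction for gene span gave 0.23 and a core minus regulatory difference of -0.054. Correction for GC content gave 5 core genes higher, beside 39.8% of all tested genes, and a core median of 0.14. Omitting single samples gave 4 to 8 core genes higher, 19 to 23 members higher and 5 to 7 lower. Of all genes tested in those fits, 37.6% to 42.3% were higher and 36.2% to 39.6% lower. The same omissions gave a core median of 0.15 to 0.22, an activator median of 0.60 to 0.74, and core minus regulatory differences of -0.160 to -0.106. Omitting Control replicate 1 and Folfiri replicate 3 together, an alternative chosen after seeing the data, gave a core median of 0.12, a difference of -0.187 and 8 members lower. In that fit 43.3% of all tested genes were higher and 41.5% lower. Members without shared exons gave 1 core gene lower and medians of 0.30 (regulatory) and 1.01 (activators). Without the chaperones, also chosen after seeing the data, the regulatory median was 0.27 and the difference -0.072. Summed levels per kb gave differences of -0.042 (principal transcript) and 0.026 (exon union, reversed) over all regulatory genes, and of -0.024 and 0.043 (reversed) without the chaperones. Of these, all but the exon union over all regulatory genes were added later. The replicate block gave 22 members higher and 6 lower, and 7 core genes higher. The replicate numbers did not pair the samples (correlations of deviations 0.027, -0.117 and 0.039). The cause of these shifts was not tested. Depth limits what can be said of Psma8, Psmb11, Psmb8 and Psmb9.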
